A study of Mus musculus with 8 samples.

Results

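The genes described here are named for the proteins of the cytosolic ribosome, and they were measured by RNA-seq in 8 mouse induced pluripotent stem cell (iPSC) clones. Members were chosen by name from the RefSeq records of the count table: symbols beginning with Rpl or Rps and a number, together with *Rpsa*, *Rplp0*, *Rplp1* and *Rplp2*, less kinases, pseudogenes and binding proteins with similar names and less *Rpl10l* and *Rps15a*. Of 86 symbols that met the rule on names, 85 reached 5 reads in 4 or more of the 8 libraries, and the other, *Rps27rt*, was at 0 in every library. By the prefix of their symbols, the 85 members comprised 33 genes named for the small (40S) subunit and 52 for the large (60S) subunit. They were among 16235 tested records of 27052 in the table. A name does not show that a record encodes a ribosomal protein, and the records used for *Rps4l* and *Rps27* are annotated as non-coding. A symbol with several records is represented by its most abundant one.

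The tested clones were TKO 35, 37, 47 and 48, derived from mouse embryonic fibroblasts (MEFs) with all 3 PIWI genes mutated (triple knockout of *Miwi*, *Mili* and *Miwi2*, TKO), and were set against Ctrl 33, 34, 41 and 43, from control littermates. The methods of the study call the control embryos triple heterozygous, whereas its legends call them wild type or heterozygous. All MEFs came from embryos of a mixed background, carried an Oct4-GFP reporter and were reprogrammed with retroviruses for OCT4, SOX2, KLF4 and c-MYC, and picked colonies were grown with LIF on mitomycin C-inactivated MEF feeder cells. Each library is 1 clone at fewer than 10 passages, and the labels do not say which embryo it came from, so p-values measure only the spread between clones. By their numbers, 2 clones of each genotype belong to the thirties and 2 to the forties, sets referred to as clone series because the labels do not explain the numbering. The study asked whether loss of the PIWI proteins alters gene expression in iPSCs.

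Ribosomal proteins are made in near-equal amounts, since each cytosolic ribosome holds 1 copy of most of them, and their mRNAs are among the most abundant of a growing cell. The mRNAs typically begin with a run of pyrimidines, the 5′ terminal oligopyrimidine (TOP) motif, through which mTOR and the RNA-binding protein LARP1 control their translation. Pluripotent stem cells divide rapidly and are known for a large demand for ribosome production.

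Total counts were 24593995 to 52457455 per TKO library and 8983203 to 24688324 per Ctrl library, so that the depth differed between the genotypes. *Piwil2* (*Mili*) had 3845 to 10084 normalized counts in TKO clones and 758 to 1028 in Ctrl clones, and *Piwil1* (*Miwi*) 2.41 to 4.53 in TKO clones and 8.13 to 28.8 in Ctrl clones. The *Mili* allele lacks early exons and its RNA is still made, so that count does not check the label. *Miwi* had 3 to 8 reads in TKO libraries and 3 to 20 in Ctrl libraries, which overlap before the division by depth, so it is a weak check at this depth. *Piwil4* (*Miwi2*) was not matched to a record by symbol, so it was not checked here. The study itself reports higher RNA of both *Mili* and *Miwi2* in TKO iPSCs and describes these transcripts as truncated and without function. All 11 measured pluripotent cell markers summed to 168448 to 189004 normalized counts in TKO clones and 141352 to 188420 in Ctrl clones. Of the 11, 9 had a positive log2 fold change (TKO over Ctrl), beside 49.5% of all records. *Pou5f1*, which encodes OCT4, was called lower in TKO clones (log2 -0.61 ± 0.10 SE, edgeR adjusted p = 0.038), and with clone series in the model so was *Tdh* (-0.44 ± 0.10, edgeR adjusted p = 0.0378). Both were named after their values were seen, and their part in the members' difference was not tested. The study lists OCT4 among factors not affected by the mutations, at a threshold of 2.5-fold, which the change in *Pou5f1* does not reach. It also reports comparable levels of the OCT4 reporter. The clones were made with retroviruses for OCT4 and other factors. Whether reads from these add to the counts of *Pou5f1* or other markers was not checked. The 16 fibroblast and feeder markers all passed the filter on low counts and summed to 28014 to 56438 in TKO clones and 37931 to 89896 in Ctrl clones, with the highest sum in Ctrl 33. Fewer cells of a type and less RNA per cell cannot be told apart in such bulk samples.

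To show the start of these genes, 50 bases around the annotated transcription start are given for 4 of the 6 members that passed the test of genotype described further on, and for *Rpl28* and *Rplp2* from chromosome 7, where clone TKO 48 stood apart. The sequences are from RefSeq (GRCm38.p6), run 30 bases before to 20 bases after the start on the gene's strand, and carry in capitals the longest run of at least 6 pyrimidines that begins with C. *Rpl12* lies at chr2:32961682-32961731 on the plus strand, *Rpl27a* at chr7:109519165-109519214 on the plus strand, *Rpl35a* at chr16:33056452-33056501 on the plus strand, *Rps3* at chr7:99483690-99483739 on the minus strand, *Rpl28* at chr7:4792935-4792984 on the plus strand and *Rplp2* at chr7:141447621-141447670 on the plus strand.
Rpl12: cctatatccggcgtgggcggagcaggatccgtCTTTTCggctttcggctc
Rpl27a: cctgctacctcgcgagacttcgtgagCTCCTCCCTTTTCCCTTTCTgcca
Rpl35a: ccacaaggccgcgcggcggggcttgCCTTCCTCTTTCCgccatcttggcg
Rps3: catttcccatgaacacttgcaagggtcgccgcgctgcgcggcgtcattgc
Rpl28: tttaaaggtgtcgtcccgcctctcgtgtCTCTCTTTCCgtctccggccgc
Rplp2: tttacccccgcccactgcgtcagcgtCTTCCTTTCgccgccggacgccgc

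The run in *Rpl27a* was 20 bases long and began 4 bases before the annotated start, and that in *Rpl35a* was 13 bases and began 5 bases before it. In *Rpl12* a run of 6 bases began at the third base of the transcript, and *Rps3* had none in these 50 bases. Promoter windows of 300 bases (250 before to 50 after the start) were found for 64 of the 85 members. A run of this kind lay within 50 bases of the start, on the gene's strand, in 60 of the 64 (93.8%), against 61.8% of all 27025 windows. Within 5 bases of the start it lay in 51.6% of the members' windows and 18.7% of all windows. On either strand of the whole window, CCGGAA, the core of many ETS factor sites, was found in 54.7% of the members' windows and 16.7% of all windows. ATGGCG, the core of the YY1 motif, was in 31.3% of the members' windows and 10.2% of all windows, and GGGCGG, the GC box bound by Sp1, was in 59.4% and 38.2%. These are matches of letters, and annotated starts can be off by several bases.

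Ribosomal protein mRNAs took a larger share of the reads in TKO clones than in Ctrl clones. The 85 members held 10.3%, 10.1%, 10.5% and 9.99% of all reads in TKO 35, 37, 47 and 48, against 9.03%, 8.32%, 9.10% and 8.32% in Ctrl 33, 34, 41 and 43. Every TKO clone was above every Ctrl clone, with 10.2% ± 0.241 in TKO and 8.69% ± 0.432 in Ctrl clones (SD, n = 4 each). By clone series the shares overlapped, with 9.48% ± 0.979 in the forties and 9.42% ± 0.912 in the thirties (SD, n = 4 each). Both subunits had this order: the 40S members summed to 999022 to 1040328 normalized counts in TKO clones and 795298 to 907925 in Ctrl clones, and the 60S members to 1462679 to 1572043 in TKO clones and 1251003 to 1358869 in Ctrl clones. The counts were divided by the size factor of their library before such sums and the values that follow.

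**Figure D1:**
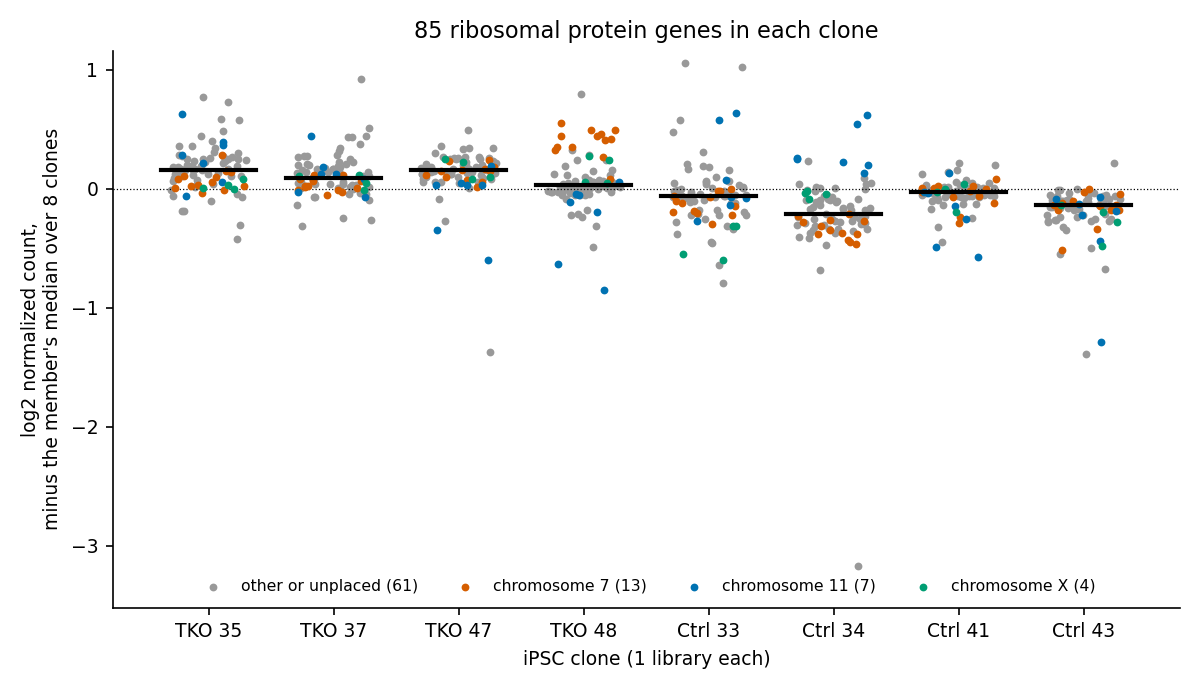
Log2 normalized count of each of the 85 members in each clone, as the difference from that member's median over the 8 clones, with TKO clones left of Ctrl clones. Black bars are the medians over members, which are above 0 in the 4 TKO clones (0.03 to 0.16) and below 0 in the 4 Ctrl clones (-0.21 to -0.03), and colours mark members on chromosomes 7, 11 and X.

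No single member passed the test of TKO against Ctrl, while the members together stood above most other genes by a small amount. By edgeR's quasi-likelihood test with Benjamini-Hochberg adjustment over all records, 0 of 85 members passed an adjusted p of 0.05 (0.24% of all tested records did, 0.0862% higher and 0.154% lower in TKO clones), and DESeq2 called 8, all higher in TKO clones (3.84% of the records to which DESeq2 gave an adjusted p). Before adjustment 48 members had p under 0.05 with a higher level in TKO clones (7.42% of all records), and 0 with a lower one (7.39% of all records). The median log2 fold change (TKO over Ctrl) of the members was 0.24, beside -0.01 over all tested records, and 79 of the 85 were positive (49.5% of all records). None reached a 2.5-fold change, the threshold of the study, and 84 were within 1.5-fold. In 31 of the 85 the lowest TKO clone was above the highest Ctrl clone (4.1% of all records had this order), and in 0 the highest TKO clone was below the lowest Ctrl clone (4.23% of all records). The medians of the 40S and the 60S members were 0.26 and 0.23.

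The 6 members with a negative value were *Rpl7l1* (-0.12), *Rps27a* (-0.08), *Rpl38* (-0.08), *Rps23* (-0.05), *Rpl30* (-0.04) and *Rpl27* (-0.01), the last chosen after its value was seen, and none of them passed the test. The largest positive values among members with at least 100 normalized counts were those of *Rplp2* (0.48 ± 0.13 SE), *Rpl39l* (0.43 ± 0.24) and *Rpl27a* (0.40 ± 0.09), with edgeR adjusted p of 0.204, 0.422 and 0.154.

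With clone series added to the model, 6 members passed, all higher in TKO clones, among them *Rpl12*, *Rpl17*, *Rpl27a* and *Rpl35a* of the large subunit and *Rps3* of the small subunit. They were 7.06% of the members, while 5.7% of all tested records were called in either direction, 2.6% higher and 3.1% lower. Before adjustment 54 members had p under 0.05, all higher in TKO clones (12.3% of all records were higher at this p). The count depended on single clones. It was 0 without Ctrl 41, Ctrl 43, TKO 35 or TKO 37 (0.574% to 1.49% of all records called) and 1 without TKO 47 (1.2%), but 10 without Ctrl 33 (5.68%) and 20 without TKO 48 (10.2%).

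*Rpl27a*, a 60S protein whose gene lies on chromosome 7 (mm9 116662661 to 116665881), had 29971, 29429, 30132 and 36831 normalized counts in TKO 35, 37, 47 and 48, against 23899, 22492, 25044 and 24001 in Ctrl 33, 34, 41 and 43. All TKO clones were above all Ctrl clones, with TKO 48 the highest by a wide margin. The log2 fold change with the series in the model was 0.40 ± 0.08 (SE, edgeR adjusted p = 0.0268). *Rps3*, on the same chromosome and at the mRNA entry site of the 40S subunit, had 62050, 62569, 60698 and 73518 normalized counts in the TKO clones and 50025, 47460, 54838 and 51119 in the Ctrl clones. Again the genotypes did not overlap and TKO 48 was highest (log2 0.35 ± 0.08, edgeR adjusted p = 0.0366).

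*Rpl12*, a 60S protein at the base of the stalk to which translation factors bind, had 41922, 41118, 42428 and 36795 normalized counts in TKO 35, 37, 47 and 48, against 34407, 30777, 33372 and 29264 in Ctrl 33, 34, 41 and 43. The genotypes did not overlap, and TKO 48 was the lowest of the TKO clones (log2 0.34 ± 0.08 with the series in the model, edgeR adjusted p = 0.0403). *Rpl17*, which lies near the exit of the peptide tunnel, had 41792, 38958, 32963 and 32309 in the TKO clones and 28336, 29313, 29226 and 28613 in the Ctrl clones (log2 0.33 ± 0.08, edgeR adjusted p = 0.0477). The Ctrl clones were close together and the TKO clones of the thirties were above those of the forties. *Rpl35a*, a gene mutated in some patients with Diamond-Blackfan anemia, an inherited lack of red cell precursors, had 1801, 1729, 1733 and 1544 normalized counts in the TKO clones and 1276, 1303, 1414 and 1372 in the Ctrl clones for its most abundant record (log2 0.34 ± 0.09, edgeR adjusted p = 0.048). Without the series in the model this record changed by 0.34 (edgeR adjusted p = 0.204), and the gene's other records by 0.07 and 0.04 (edgeR adjusted p = 0.879 and 0.962). The call was made on 1 of 3 records, and the others are not given here with the series in the model. For each of these 5, the exact two-sided permutation test over 70 arrangements of the clones gave p = 0.0286, the smallest it can give with 4 against 4. This p follows from the lack of overlap. The 5 were chosen by a test on the same values, so it adds no separate support.

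**Figure D2:**
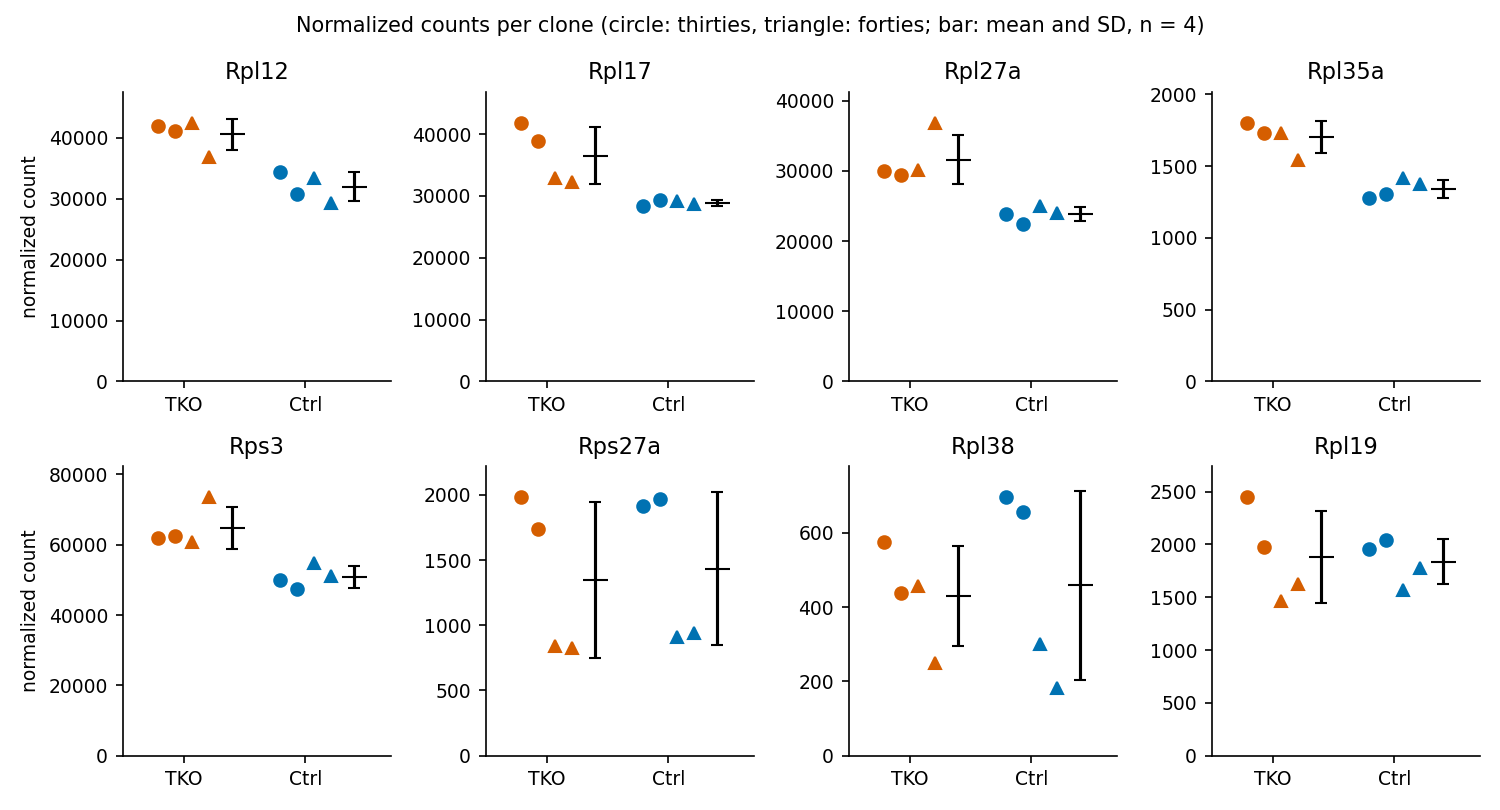
Normalized counts in each clone, TKO left and Ctrl right, of 5 members called for genotype with the series in the model and of *Rps27a*, *Rpl38* and *Rpl19*, called between clone series. Circles are clones of the thirties, triangles clones of the forties, and bars the mean and SD of 4 clones. The first 5 are higher in TKO clones, and *Rps27a* separates by series, with 826 to 843 and 912 to 940 normalized counts in the TKO and Ctrl clones of the forties.

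Within the thirties, 12 members were higher in TKO 35 and 37 than in Ctrl 33 and 34 and 0 were lower, 14.1% of the members beside 11.9% of all tested records called, 4.83% higher and 7.05% lower. The median of the members was 0.28 and that of all records -0.01. The 5 largest were *Rpl31* (log2 0.55 ± 0.09 SE, edgeR adjusted p = 0.00952), *Rpl17* (0.49 ± 0.08), *Rpl9* (0.48 ± 0.08), *Rpl3* (0.46 ± 0.11) and *Rpl35a* (0.45 ± 0.11). *Rpl31*, a 60S protein beside the tunnel exit, had 34951 and 32496 normalized counts in TKO 35 and 37, against 24303 and 21908 in Ctrl 33 and 34. *Rpl3*, which reaches towards the peptidyl transferase centre, had 104309 and 100835 in these TKO clones, against 74930 and 74166 in the Ctrl clones. Every value of the other 7 called members lay between 0.34 and 0.43. With 1 of these clones left out the count was 0 without TKO 35 (0.17% of all records called) or TKO 37 (0.511%), 33 without Ctrl 33 (21.3%) and 12 without Ctrl 34 (11.1%). All 8 clones share 1 estimate of the spread, and the count was 4 without Ctrl 41 (6.67%) or Ctrl 43 (6.64%) and 18 without TKO 47 (14.1%) or TKO 48 (14.2%) of the other series.

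In the thirties the fibroblast and feeder markers also differed, with 11 of 16 lower in TKO clones by edgeR (7.05% of all records). Their median log2 fold change was -1.23, and their part in the members' difference was not tested. In the forties none of these markers was called and their median was 0.48, while the members had a median of 0.20 and 79 of 85 were positive (51.6% of all records). There 0 members passed, beside 1.98% of all tested records (0.813% higher and 1.17% lower), and before adjustment 21 had p under 0.05, all higher in TKO clones (9.5% of all records). By DESeq2 the count was 4, or fewer in proportion than the 9.12% of all records called, and by edgeR it was 10 without Ctrl 33 (9.15% of all records) or Ctrl 34 (9.19%), all higher in TKO clones. The largest values in the forties were those of *Rplp2* (0.60 ± 0.17 SE, edgeR adjusted p = 0.103), *Rpl38* (0.54 ± 0.31) and *Rpl36* (0.47 ± 0.29) above 0 and *Rps27a* (-0.15 ± 0.11), *Rpl7l1* (-0.11 ± 0.10) and *Rpl19* (-0.11 ± 0.13) below 0.

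The change with genotype was not shown to differ between the series for any member. The test of that difference (TKO over Ctrl in the forties minus the same in the thirties) passed for 0 members, beside 1.3% of all records (1.03% higher and 0.265% lower), and before adjustment 1 member had p under 0.05 with a positive difference (10.7% of all records) and 4 with a negative one (8.01%). Large differences of this kind belonged to *Rpl38* (0.95 ± 0.43 SE), *Rpl30* (0.64 ± 0.27) and *Rpl34* (0.32 ± 0.27) above 0 and, among those below 0, to *Rps23rg1* (-0.51 ± 0.36) and *Rpl31* (-0.41 ± 0.13), with edgeR adjusted p between 0.136 and 0.58.

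Between the clone series the members moved in both directions and a smaller share of them was called than of all records. In the forties 5 members were higher and 3 lower than in the thirties, which is 9.41% of the members beside 19.4% of all tested records (9.84% higher and 9.56% lower), and the median of the members was -0.01, as was that of all records. The higher members had log2 changes of 0.25 to 0.31 and included *Rpl7l1*, *Rps19*, *Rps25* and *Rps27l*, and the lower ones were *Rps27a*, *Rpl38* and *Rpl19*. By leaving out 1 clone, with 8.08% to 23.7% of all records called, the count became 1 (without Ctrl 41 or TKO 35), 2 (without Ctrl 43), 3 (without TKO 37 or TKO 48), 5 (without TKO 47) or 13 (without Ctrl 34).

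*Rps27a*, which encodes ubiquitin fused to a 40S protein, had 843 and 826 normalized counts in TKO 47 and 48 and 912 and 940 in Ctrl 41 and 43 of the forties, against 1982 and 1737 in TKO 35 and 37 and 1912 and 1967 in Ctrl 33 and 34 of the thirties. The series did not overlap, and the genotypes overlapped in the thirties but not in the forties. The log2 change (forties over thirties) was -1.11 ± 0.08 (SE, edgeR adjusted p = 0.000161), the largest among the members, and lay between -1.14 and -0.92 under all alternatives. A second record of the gene changed by -0.16 ± 0.20 (edgeR adjusted p = 0.617), with 320 and 331 normalized counts in TKO 47 and 48 and 318 and 288 in Ctrl 41 and 43, against 277 and 265 in TKO 35 and 37 and 358 and 551 in Ctrl 33 and 34. The difference therefore lay in 1 of the 2 records.

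*Rpl38*, a 60S protein needed in mice for translation of a set of Hox mRNAs, had 457 and 249 normalized counts in TKO 47 and 48 and 301 and 183 in Ctrl 41 and 43, against 577 and 439 in TKO 35 and 37 and 696 and 655 in Ctrl 33 and 34. The series overlapped, since TKO 47 was above TKO 37 (log2 -0.99 ± 0.27, edgeR adjusted p = 0.0289). Its second record changed in the same direction (-1.20 ± 0.27, edgeR adjusted p = 0.015). *Rpl19*, a 60S protein that bridges the subunits, had 1469 and 1625 in TKO 47 and 48 and 1567 and 1775 in Ctrl 41 and 43, against 2447 and 1976 in TKO 35 and 37 and 1961 and 2045 in Ctrl 33 and 34 (-0.39 ± 0.10, edgeR adjusted p = 0.0266). The second record of *Rpl19*, with a mean of 13.1 normalized counts, changed by -0.19 ± 0.38 (edgeR adjusted p = 0.75). *Rps27a*, *Rpl38* and *Rpl19* each have several records, and those used here had 1915, 1202 and 2442 normalized counts per kb. The part of read assignment between records in these 3 calls was not tested. The 3 genes are also all on chromosome 11, where Ctrl 34 stood apart. Without Ctrl 34 the changes were -1.11 for *Rps27a*, -0.92 for *Rpl38* and -0.41 for *Rpl19*, with edgeR adjusted p of 0.000409, 0.0487 and 0.0308.

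*Rps19*, the gene most often mutated in Diamond-Blackfan anemia in humans, had 18376 and 22748 normalized counts in TKO 47 and 48 and 16514 and 16468 in Ctrl 41 and 43, against 16083 and 17291 in TKO 35 and 37 and 14156 and 12647 in Ctrl 33 and 34 (log2 0.30 ± 0.08, edgeR adjusted p = 0.0348). It lies on chromosome 7, where TKO 48 stood apart, and without TKO 48 its change was 0.23. The call was kept in 2 of 8 fits with 1 clone left out. *Rps25*, a 40S protein that viral internal ribosome entry sites depend on, had 27147 and 24691 in TKO 47 and 48 and 23526 and 21913 in Ctrl 41 and 43, against 21677 and 24152 in TKO 35 and 37 and 17439 and 18296 in Ctrl 33 and 34 (0.26 ± 0.08, edgeR adjusted p = 0.0415). In both the series overlapped. *Rpl7l1* was the one member with every clone of the forties above every clone of the thirties (8.35% of all records had this order): 8556 and 9166 in TKO 47 and 48 and 9591 and 9563 in Ctrl 41 and 43, against 6674 and 7714 in TKO 35 and 37 and 7931 and 7914 in Ctrl 33 and 34 (0.29 ± 0.07, edgeR adjusted p = 0.0237). In the opposite order, with the forties below, were *Rpl19*, *Rps27* and *Rps27a* (7.72% of all records), with *Rps27* measured by a non-coding record.

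Single clones deviated together in members of the same chromosome, a pattern noticed in these data and given without a test. Of the 13 members on chromosome 7, 12 had their highest value of all 8 clones in TKO 48, against 2 of the 72 other members. The median ratio of TKO 48 to the mean of the other TKO clones was 1.23 for the 13 (1.01 to 1.36) and 0.907 for the other 72. It was 1.23 also for 843 other records on chromosome 7 that averaged 50 normalized counts or more and 0.975 for 9801 other records elsewhere, so the other genes of the chromosome showed it too. *Rpl28* had 32176 normalized counts in TKO 48 and 23436 to 25591 in the others. The exception was *Rps9*, with 38755 in TKO 48 and 36019 to 41664 in the others.

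On chromosome 11, the 7 members had a median ratio of 1.29 in Ctrl 34 over the mean of the other Ctrl clones (1.15 to 1.66), and the 78 members elsewhere 0.904. The 910 other records of the chromosome had 1.24, and 9734 records elsewhere 0.966. In *Rpl26*, which had 9577 normalized counts in Ctrl 34 and 6917 to 7352 in the other Ctrl clones, and in 5 more of the 7, Ctrl 34 was the highest Ctrl clone, whereas it was the lowest of all 8 clones in 38 of the 78 others. The 4 members on the X chromosome (*Rpl10*, *Rpl36a*, *Rpl39* and *Rps4x*) had their lowest value of all 8 clones in Ctrl 33. Their median ratio over the mean of the other Ctrl clones was 0.816, beside 0.76 for 383 other records of the X. Elsewhere it was 1.01 for 81 members and 0.988 for 10261 other records. Ctrl 34, which is part of that mean, was itself high on the X. Its own ratios there were 1.13 for the 4 members and 1.22 for the 383 records, beside 0.906 and 0.974 elsewhere. The genes of these chromosomes named here were chosen after their values were seen.

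**Figure D3:**
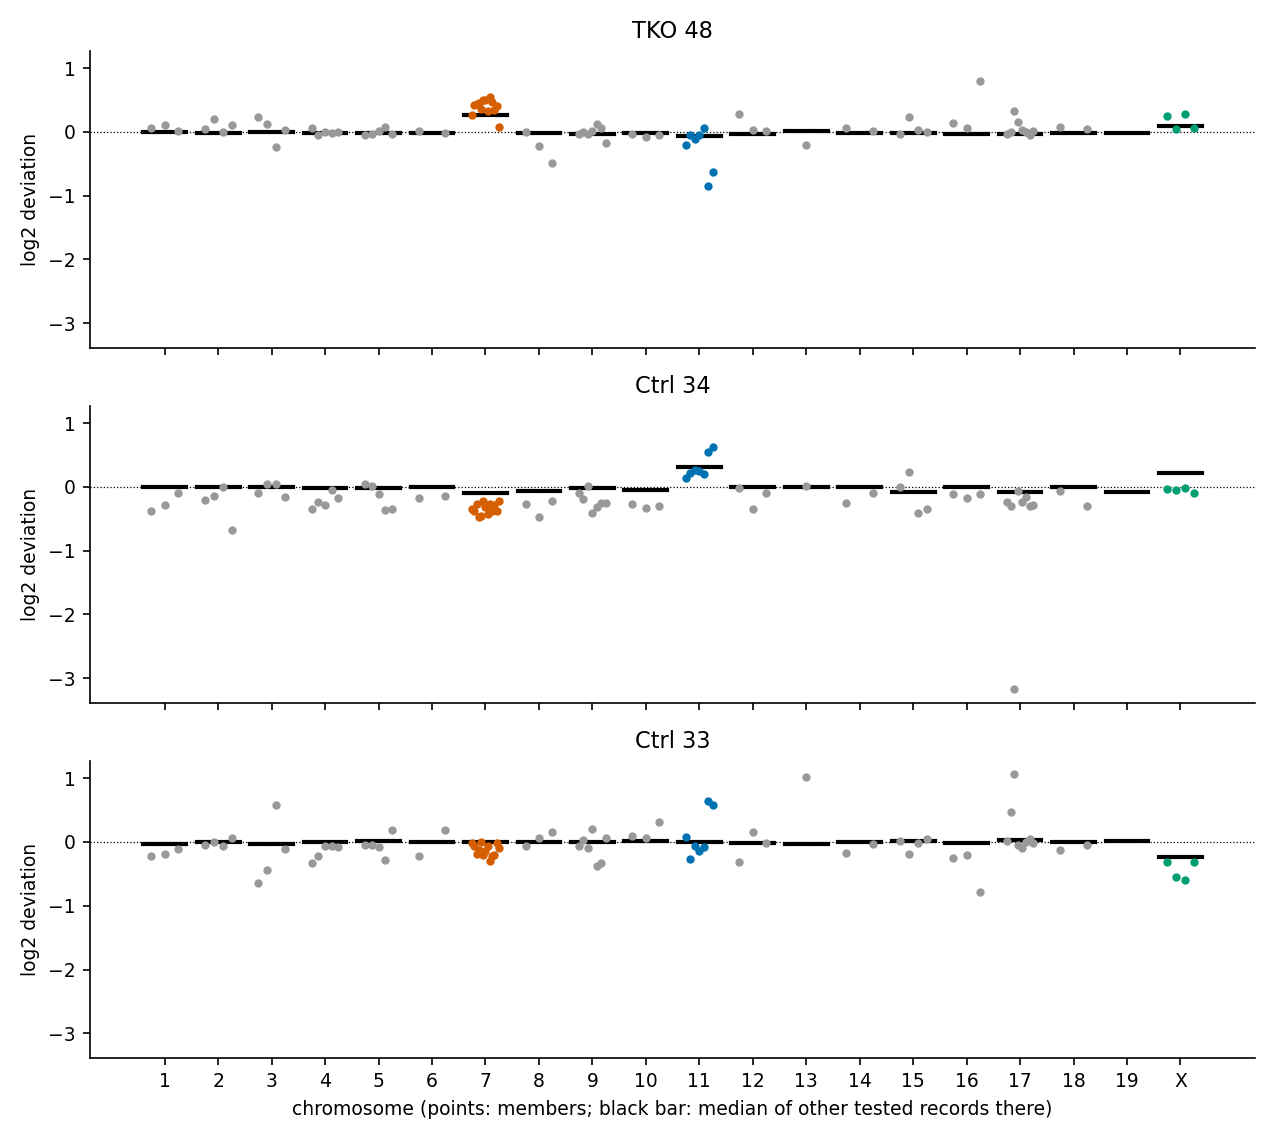
Log2 normalized counts in clones TKO 48, Ctrl 34 and Ctrl 33, as differences from the median over the 8 clones, by chromosome. Points are members and black bars the medians of the other tested records on each chromosome. The 13 members on chromosome 7 lie above 0 in TKO 48, the 7 on chromosome 11 above 0 in Ctrl 34, and the 4 on the X below 0 in Ctrl 33.

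Away from these chromosomes the median was nearly the same. The 61 members that lie elsewhere or have no mm9 position had a median log2 fold change of 0.23 (TKO over Ctrl), with 58 positive, beside 0.33 for the 13 on chromosome 7, 0.03 for the 7 on chromosome 11 and 0.30 for the 4 on the X. All 12 members called in the thirties were among the 61, as were *Rpl12*, *Rpl17* and *Rpl35a*. Without both TKO 48 and Ctrl 34 the median of all members was 0.23, and 18 members were called with the series in the model (beside 9.65% of all records), all higher in TKO clones.

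Levels differed widely among the members, as the normalized count per kb of record shows. The highest were *Rpl41* (96205 ± 12069 per kb, SD over 8 clones), *Rps4x* (88098 ± 8700), *Rps12* (85803 ± 11281), *Rps18* (82953 ± 12520) and *Rpl10* (79108 ± 10005), neighbours that differ by less than their spread. *Rpl41*, whose product is a very short basic peptide, had 51740, 47358, 50409 and 45672 normalized counts in TKO 35, 37, 47 and 48, against 41436, 38904, 41595 and 36150 in Ctrl 33, 34, 41 and 43, with no overlap of the genotypes (log2 0.30 ± 0.08, edgeR adjusted p = 0.195). The lowest were *Rpl3l* (10.2 ± 6.79 per kb), *Rpl32l* (24.4 ± 5.71), *Rps27* (67.8 ± 17.2), *Rps23rg1* (85.7 ± 24.2) and *Rps23* (145 ± 64.5). Of these, *Rps27* and *Rps23* encode core ribosomal proteins, but the record measured for *Rps27* is annotated as non-coding. Its coding record had 0 reads in every library, so the level of the *Rps27* mRNA is not known here. *Rps23* had 29 to 180 reads per library. How reads that match both it and its paralog *Rps23rg1* or other copies were counted is not known. The level of the *Rps23* mRNA is therefore uncertain too.

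The 76 members with 1 record had a median of 40410 per kb and the 9 with several records 1778 per kb, with 4786 as the highest of the 9. The rule for reads with more than 1 match is not given in the sources used here, so levels of members with several records or near-identical copies are uncertain, and so are changes in them.

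**Figure D4:**
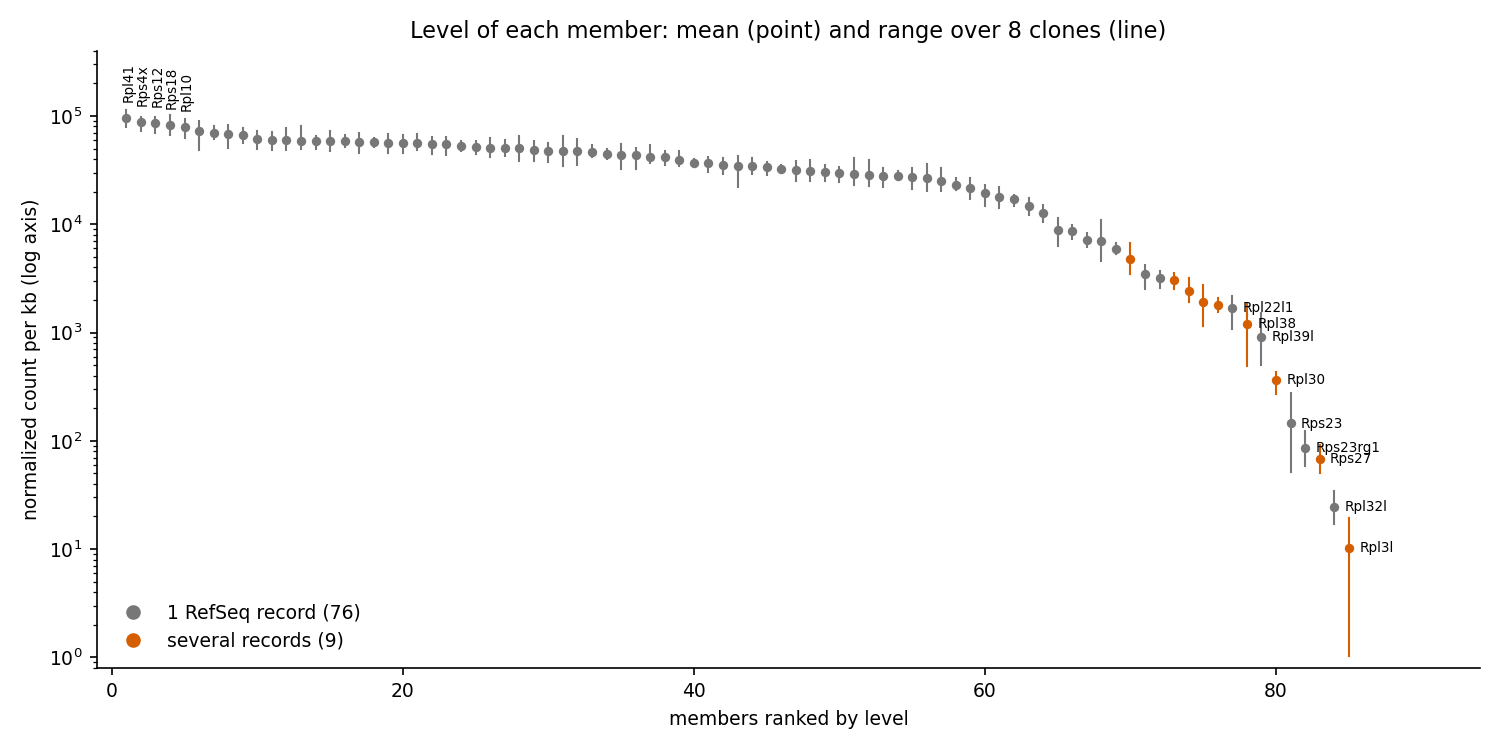
Normalized count per kb of each member on a log axis, ranked from the highest, with the mean of 8 clones (point) and their range (line). The 9 members with several RefSeq records, in orange, lie in the lower part of the ranking, at 4786 per kb or less.

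The 3 proteins of the P stalk, where GTPase factors dock, had positive log2 fold changes that did not pass the test. *Rplp2* had 4840, 3990, 4248 and 5074 normalized counts in TKO 35, 37, 47 and 48, against 3966, 2913, 3380 and 2779 in Ctrl 33, 34, 41 and 43, without overlap of the genotypes. *Rplp0*, the anchor of the stalk, averaged 80326 ± 5018 in TKO clones and 69915 ± 11534 in Ctrl clones (SD, n = 4 each), with Ctrl 33 above all TKO clones (log2 0.20 ± 0.12, edgeR adjusted p = 0.435). *Rplp1* averaged 33918 ± 3920 in TKO clones and 29214 ± 5533 in Ctrl clones (log2 0.22 ± 0.14, edgeR adjusted p = 0.485). *Rpsa*, also known as a laminin receptor precursor, averaged 81905 ± 9088 in TKO clones and 72473 ± 6814 in Ctrl clones (0.18 ± 0.11, edgeR adjusted p = 0.448).

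Some members are paralogs of others, and by the mean of 8 clones the paralog was the lower of the pair per kb in 8 of 9 pairs. The exception, *Rps27l* with *Rps27*, rests on a non-coding record of *Rps27*. Among the 8, *Rps23rg1* made up 51.7% of the pair with *Rps23* in TKO 37 and 59.9% in Ctrl 43, against 25.1% to 40.9% in the other clones. The order of that pair thus varied between clones, and the level of *Rps23* is uncertain. *Rpl39l*, known from the testis in mice, had 1047 ± 316 per kb in TKO clones and 772 ± 204 in Ctrl clones, beside 82323 ± 7030 and 64091 ± 11863 for *Rpl39*. *Rpl22l1* made up 16.8% ± 2.31 of the pair with *Rpl22* in TKO clones and 15.9% ± 2.17 in Ctrl clones. *Rpl36al* made up 28.1% ± 2.96 of the pair with *Rpl36a* in TKO clones and 30.6% ± 2.49 in Ctrl clones. These shares differed between genotypes by less than the spread of the clones.

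*Rpl7l1* made up 4.83% ± 0.791 of the pair with *Rpl7* in TKO clones and 5.88% ± 0.423 in Ctrl clones, a difference that was not tested. *Rps4l*, annotated as a non-coding record, had a log2 fold change of 0.03 ± 0.12, beside 0.22 ± 0.08 for *Rps4x*, and neither passed the test. *Rpl3l*, a striated muscle paralog of *Rpl3*, and *Rpl32l* were near the detection limit, with 16.8 ± 8.61 and 15.5 ± 3.54 normalized counts in TKO clones and 11.8 ± 10.9 and 13.4 ± 3.33 in Ctrl clones. *Rps27l*, a p53 target, had 13396 ± 1405 per kb in TKO clones and 12044 ± 1433 in Ctrl clones. It exceeded the non-coding record that stands for *Rps27*. The coding record of *Rps27* had 0 reads, so the mRNAs of this pair cannot be compared. *Rps23rg1* had 96.4 ± 29.7 per kb in TKO clones and 74.9 ± 13.3 in Ctrl clones.

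Other parts of the translation machinery had medians below that of the members. The genes of rRNA transcription and ribosome assembly had a median log2 fold change (TKO over Ctrl) of -0.19 over 78 measured genes, with 8 positive and none called. With the series in the model 12 of them were lower (3.1% of all records) and 0 higher (2.6%) in TKO clones, among the 12 *Ubtf*, a factor of RNA polymerase I (-0.62 ± 0.13 SE, edgeR adjusted p = 0.0284), *Tsr1* (-0.57 ± 0.10) and *Mdn1* (-0.57 ± 0.08), which act in assembly of the small and the large subunit. *Imp4*, of the small subunit processome, had -0.54 ± 0.13. Between the series 33 were higher in the forties (9.84% of all records) and 0 lower (9.56%), with a median of 0.27.

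The 78 mitochondrial ribosomal proteins had a median of 0.03 between genotypes, with 0 called, and 1 was called with the series in the model, beside 5.7% of all records (*Mrpl23*, 0.58 ± 0.13, edgeR adjusted p = 0.0358). Medians were -0.03 for 36 initiation factors, 0.07 for 11 elongation factors and 0.09 for 21 other mRNAs with a TOP motif. None of these was called without the series. With it *Eif3k* (0.40 ± 0.09) and *Eif3f* (0.34 ± 0.08), subunits of the initiation factor eIF3, were higher in TKO clones. These 2 of 36 are 5.56%, beside 2.6% of all records called higher and 5.7% called in either direction, and whether the shares differ was not tested. *Larp1*, the regulator of TOP mRNAs, was lower in TKO clones with the series in the model (-0.49 ± 0.11, edgeR adjusted p = 0.0385). It was the 1 call among 16 genes of TOP translation control (6.25%), beside 3.1% of all records called lower and 5.7% in either direction. In the Myc family of 9 measured genes none was called for genotype, with or without the series. The clones were made with a retrovirus for c-MYC, and whether its reads add to the counts of this family was not checked.

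Most members have short mRNAs, and other short records were shifted in the same direction. The 1271 other tested records of at most 1000 bases had a median log2 fold change of 0.13 (TKO over Ctrl), and the 269 of them with at least 1000 normalized counts, a limit chosen after the data were seen, had 0.16, beside 0.24 for the members. In the thirties these 269 had 0.13 beside 0.28 for the members, and in the forties 0.19 beside 0.20. The part of record length and of library depth in the members' difference was not tested.

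**Figure D5:**
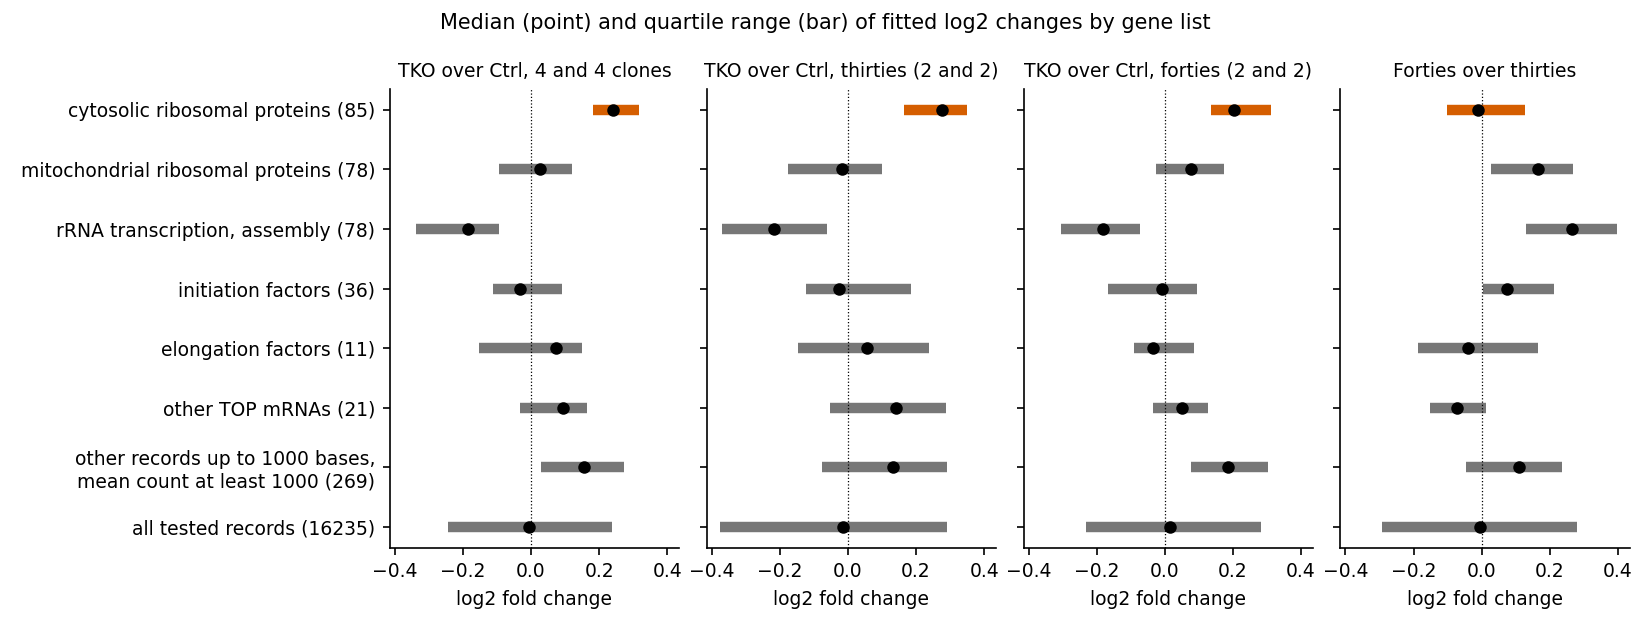
Median (point) and range from the lower to the upper quartile (bar) of the fitted log2 fold changes of each gene list, for TKO over Ctrl in all clones, in the thirties and in the forties, and for the forties over the thirties. The cytosolic ribosomal proteins, in orange, have medians of 0.24, 0.28 and 0.20 for genotype and -0.01 for series, and the genes of rRNA transcription and assembly have -0.19, -0.22, -0.18 and 0.27.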

How the data were processed

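RNA-seq reads of 8 iPSC clones were analysed. The authors prepared Illumina TruSeq RNA libraries, mapped single-end reads with BWA (0.7.5a in the submitters' processing notes) to mm9 transcripts and deposited 1 raw read count per RefSeq record and library. The rules for multiple matches and strand are not given in the sources used here.

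Counts were divided by DESeq median-ratio size factors and tested with edgeR 4.0.16 (glmQLFit, robust off) in R 4.3.3, on 16235 records that reached 5 reads in 4 or more libraries, with Benjamini-Hochberg adjustment over all of them and a threshold of 0.05. Alternatives were TMM and total-count scaling, other filters, records summed per symbol, DESeq2 1.42.0, limma-voom (3.58.1), edgeR's exact test and leaving out each clone. The fit without Ctrl 34 and TKO 48, and members outside chromosomes 7, 11 and X, were added after seeing the data. The methods were tested on simulated data.

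Symbols came from RefSeq (GRCm38.p6, names and promoter sequences only) and positions from GENCODE M1 (mm9), found for 83 of 85 members. Named were members called in a comparison (at most 10 per direction, or 5 within series) or else the 3 with the largest changes per direction, the 5 highest and 5 lowest per kb, the P stalk, *Rpsa*, the paralogs, and up to 4 called genes of each other list. The members and lists were chosen with earlier results of these data known. Other lists were pluripotent cell markers, fibroblast and feeder markers, rRNA transcription and ribosome assembly, initiation and elongation factors, other TOP mRNAs, TOP translation control, the Myc family and mitochondrial ribosomal proteins. Some members and genes of these lists are not reported here by name.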

Additional observations from a re-analysis of the deposited data

Results flagged for a closer look

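In 4 of 78 groups of 4 clones examined (38 named members and the share of reads, in each genotype), 1 clone stood farther from the other 3 than Dixon's critical value allows, and chance gives about 1 in 20 such groups. All 4 concern TKO 48. *Rpl27a* had 36831 normalized counts in TKO 48 and 29429 to 30132 in the other TKO clones, and *Rps3* had 73518 and 60698 to 62569. Both lie on chromosome 7. *Rpl39l*, on chromosome 16, had 1221 normalized counts in TKO 48 and 670 to 743 in the other TKO clones. *Rpsa*, on chromosome 9, was low, with 68437 in TKO 48 and 84976 to 88314 in the others.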

How the results depend on the processing

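The members' median log2 fold change (TKO over Ctrl) stayed between 0.22 and 0.28, their median between series between -0.03 and 0.04, and the TKO minus Ctrl share of reads between 1.40 and 1.66 percentage points, with any 1 clone left out, and all other alternatives moved these by less than the spread between clones. Counts of called members moved. The shares of all records called stand in parentheses. Against 0 for TKO over Ctrl (0.24%), DESeq2 gave 8 (3.84%) and the series term 6 (5.7%), while all other alternatives and each clone left out gave 0 (0.0937% to 1.34%). Against 6 with the series term, the count was 15 without a filter (5.31%), 13 with at least 10 reads in every library (8.75%), 32 by DESeq2 (15.8%), 21 by limma-voom (6.94%), 9 with TMM (5.76%), 18 without Ctrl 34 and TKO 48 (9.65%), 3 among the 61 members outside chromosomes 7, 11 and X (5.7%), and 0 to 20 with 1 clone left out (0.574% to 10.2%). Against 8 between series (19.4%), it was 3 among those 61 members and 1 to 13 with 1 clone left out (8.08% to 23.7%). Against 12 in the thirties (11.9%), it was 7 with total-count scaling (12.3%), 22 without a filter (11.1%), by DESeq2 (18.6%) and by limma-voom (13.4%), 31 without Ctrl 34 and TKO 48 (23.1%), and 0 to 33 with 1 clone left out (0.17% to 21.3%). Against 0 in the forties (1.98%), it was 4 without a filter (3.3%) and by DESeq2 (9.12%), 28 without Ctrl 34 and TKO 48 (17.8%), and 0 to 10 with 1 clone left out (0.0437% to 9.19%). Against 0 for the difference between series (1.3%), it was 3 without Ctrl 34 and TKO 48 (10.5%) and 0 to 2 with 1 clone left out (0.00623% to 8.11%). Every member named here kept its direction in the comparison that called it, and the causes of these moves were not tested.

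Among 962 values of named members, 811 kept their direction and call, 109 lost a call, 12 gained one and 30 changed sign, at adjusted p of 0.6 or more by edgeR, DESeq2 or limma-voom. With the series term the call of *Rpl35a* was lost in 9 of 16 alternatives, that of *Rpl17* in 8 and that of *Rps3* in 7, and between series those of *Rps25* and *Rps27l* in 8 each, whereas that of *Rps27a* was lost in 0. By limma-voom the log2 fold change was 0.19 for *Rpl38*, 0.21 for *Rps23* and 0.022 for *Rps27a*. Without Ctrl 34 and TKO 48 it was 0.35 for *Rpl38*, 0.0076 for *Rps23*, 0.29 for *Rps27a* and -0.0013 for *Rps4l*, and with the series term 0.055 for *Rpl38* and 0.028 for *Rps23*. With 1 clone left out it ran from -0.12 to 0.14 for *Rpl19*, -0.14 to 0.073 for *Rpl30*, -0.35 to 0.19 for *Rpl38*, -0.35 to 0.39 for *Rps23*, -0.090 to 0.23 for *Rps27*, -0.33 to 0.11 for *Rps27a* and -0.034 to 0.11 for *Rps4l*. No paired analysis was possible because TKO and Ctrl clones share no number. With 4 clones against 4, exact tests give no p below 0.0286, and members with few reads, such as *Rpl3l*, have large errors.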
